A study of Mus musculus with 22 samples.

Results

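The mitosis and spindle genes are 43 named genes whose products enter, build, check or complete cell division. They were taken by gene symbol from the count tables of a mouse lung RNA-seq study, 43 of 24405 gene rows used, and all 43 were present and passed the filter on low counts in every comparison. RNA was taken from right-lung caudal lobes of C57BL/6 mice (described only as old wild type, with no age in the labels used here) in a model of allergic airway disease, with ovalbumin (OVA) as the allergen. There were 5 libraries of the OVA arm given 3 µg of goat-farm particulate matter (PM; replicates 1, 2, 4, 5 and 6), 6 of the OVA arm without PM, 5 of the saline arm with 3 µg PM (replicates 1, 2, 3, 5 and 6) and 6 of the saline arm without PM. The arms are named after the sensitisation given in the labels. The protocol text also speaks of sensitised mice challenged with saline, so the saline arm may be read either way. Since no label says that each library is a separate animal, p-values measure the spread between these libraries, which may be technical. The design text gives 5 per group, while 6 libraries are listed in each group without PM and n counts libraries. PM samples are numbered in a series of their own, so that preparation or sequencing run cannot be told apart from PM.

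Library totals ran from 0.302 M counts (OVA arm with PM, replicate 4) to 28.01 M, with a median of 12.5 M, and 3 libraries held under 2 M (with PM, replicates 4 and 5 of the OVA arm; without PM, its replicate 4). In replicate 4 of the OVA arm with PM, 42 of the 43 genes had under 10 counts and 3 had none (Kif11, Plk1 and Pbk), where a count of 0 allows up to 10.05 CPM (3 counts, counting error only). Markers of alveolar type 2 cells, the surfactant-making epithelium of the lung, summed to between 36260 and 76370 CPM in all 22 libraries. CPM here are read counts per M of the library's total after trimmed-mean (TMM) scaling.

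Entry into mitosis is driven by the kinase CDK1 in complex with cyclin B. Chromosomes then condense, kinesin motors and microtubule proteins build the spindle, kinetochores attach the chromosomes, and a checkpoint holds back the anaphase-promoting complex (APC/C) until all are attached. The APC/C next degrades cyclin B and securin, sister chromatids separate, and the central spindle and the contractile ring divide the cell. Most of these genes are silent in resting cells and switched on together in the G2 and M phases, so that in a mostly resting organ such as the lung their RNA marks cycling cells. The switch is known to act through the CHR (cell cycle genes homology region) element, a short promoter sequence bound by the MuvB complex, which represses in resting cells as part of DREAM and activates with B-MYB and FOXM1, and through CCAAT boxes bound by NF-Y.

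Many of the genes' promoters held the letters of these elements, a property that did not enter their choice. RefSeq promoter windows (GRCm38.p6, 250 bases before to 50 after the start) were matched for 38 of the 43 genes, and Ccna2, Tpx2, Aurkb, Kif20a and Pbk had no entry in the table used. The CHR was searched as TTTGAA and TTCGAA and the CCAAT box as CCAAT, each on both strands (TTCAAA and ATTGG on the other strand). Matches could overlap each other, and TTCGAA, which reads the same on both strands, was counted once. The stretches of 100 bases that end at the base before the start are printed 5′ to 3′ on the gene's strand, with every match in capitals, for the 6 genes that hold both motifs there and for Ccnb1, the gene with the largest difference below. They are Ccnb1 (chr13:100786487-100786586, minus strand), Cdc20 (chr4:118437344-118437443, minus), Cdk1 (chr10:69352913-69353012, minus), Ckap2l (chr2:129297213-129297312, minus), Kif11 (chr19:37376282-37376381, plus), Top2a (chr11:99024190-99024289, minus) and Ube2c (chr2:164769829-164769928, plus).
Ccnb1: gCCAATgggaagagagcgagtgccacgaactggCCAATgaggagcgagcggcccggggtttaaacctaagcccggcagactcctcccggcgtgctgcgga
Cdc20: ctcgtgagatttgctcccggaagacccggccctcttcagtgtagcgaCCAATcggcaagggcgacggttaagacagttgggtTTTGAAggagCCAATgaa
Cdk1: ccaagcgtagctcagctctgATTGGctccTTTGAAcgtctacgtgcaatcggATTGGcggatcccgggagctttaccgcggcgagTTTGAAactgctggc
Ckap2l: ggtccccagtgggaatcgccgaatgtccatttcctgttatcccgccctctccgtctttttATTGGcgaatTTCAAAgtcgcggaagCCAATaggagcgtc
Kif11: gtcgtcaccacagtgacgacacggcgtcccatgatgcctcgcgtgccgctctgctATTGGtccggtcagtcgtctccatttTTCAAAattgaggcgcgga
Top2a: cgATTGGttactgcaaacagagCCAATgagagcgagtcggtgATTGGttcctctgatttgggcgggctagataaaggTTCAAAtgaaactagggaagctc
Ube2c: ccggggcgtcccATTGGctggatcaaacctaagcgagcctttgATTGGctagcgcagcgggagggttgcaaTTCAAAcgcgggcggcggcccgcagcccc

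Among the printed stretches, Ccnb1 had 2 CCAAT boxes and no CHR match, and Top2a had the most CCAAT boxes, with 3. Cdk1 held 2 CHR matches that began 71 and 15 bases before the start, and the closest CHR of Cdc20, Kif11, Top2a, Ube2c and Ckap2l began 18, 19, 23, 29 and 30 bases before it. Over the whole windows, 29 of the 38 genes (76.3%) had a CHR match, against 18.2% of the 17492 protein-coding windows in the table. Of the 40 matches, 29 lay within 50 bases of the start, in 27 genes. Both motifs were in 25 of 38 windows (65.8%), against 7.43% of protein-coding windows. CCAAT boxes were in 28 of 38 windows (73.7%), against 39.0% of protein-coding windows. Both motifs stood between 100 bases before and 50 after the start in 22 of 38 genes (57.9%), against 1.97% of protein-coding windows. The 9 windows without a CHR match were those of Birc5, Ccnb1, Cenpe, Melk, Ncaph, Nek2, Nuf2, Nusap1 and Pttg1. Other spellings of the CHR were not searched, so that a window without a match may still hold one. These matches describe letters in the sequence and not binding.

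**Figure D1:**
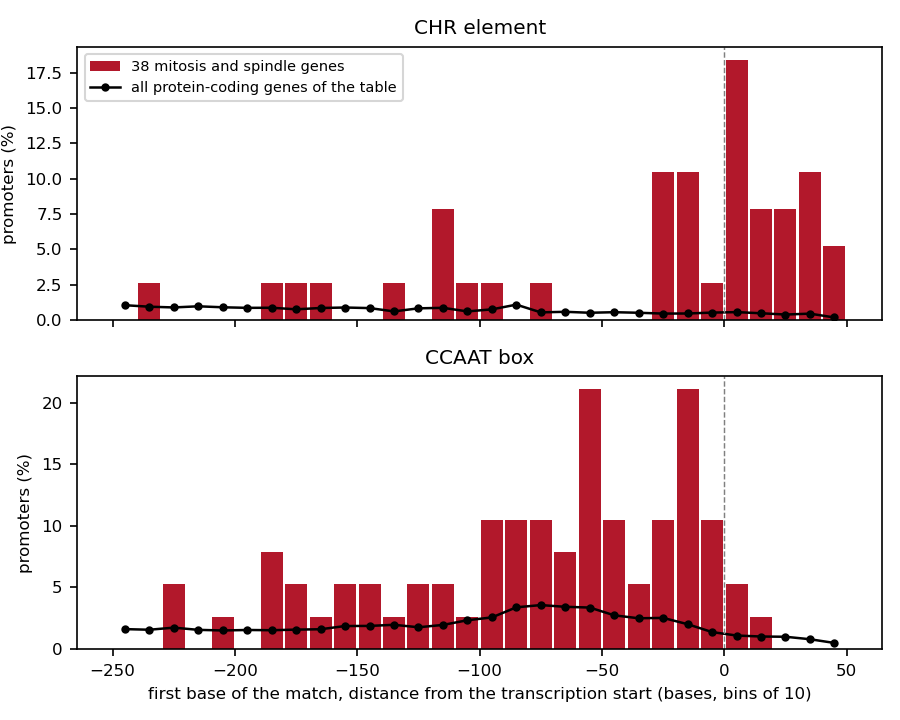
Share of promoters (%, vertical axes) with the first base of a CHR (upper panel) or CCAAT (lower panel) match in each bin of 10 bases, by distance from the transcription start (horizontal axis). Bars are the 38 mitosis and spindle genes with a RefSeq window and the line is all 17492 protein-coding windows. CHR matches of the 38 genes crowd around the start, with 29 of 40 within 50 bases of it.

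Without PM, the whole set was higher in the OVA arm than in the saline arm. Of 43 genes 43 passed the threshold (edgeR quasi-likelihood test, Benjamini-Hochberg adjusted p under 0.05 over all genes) and were higher, where 14.4% of the 14632 genes tested were higher. The median log2 fold change was 2.50 (quartiles 2.09 and 2.81) against -0.019 over all genes tested, and 33 of the 43 were at 2 or more, as were 1.54% of all genes. Summed over the 43 genes, the level was 832.2 ± 248.9 CPM in the OVA arm without PM (SD, n = 6) and 176.7 ± 32.1 CPM in the saline arm without PM (SD, n = 6). The libraries of the arms did not overlap for 41 genes, where 6.9% of all genes were higher without overlap, and the exceptions were Ncaph and Pttg1. RNA from whole lobes cannot tell a larger number of dividing cells from more of these transcripts per cell.

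**Figure D2:**
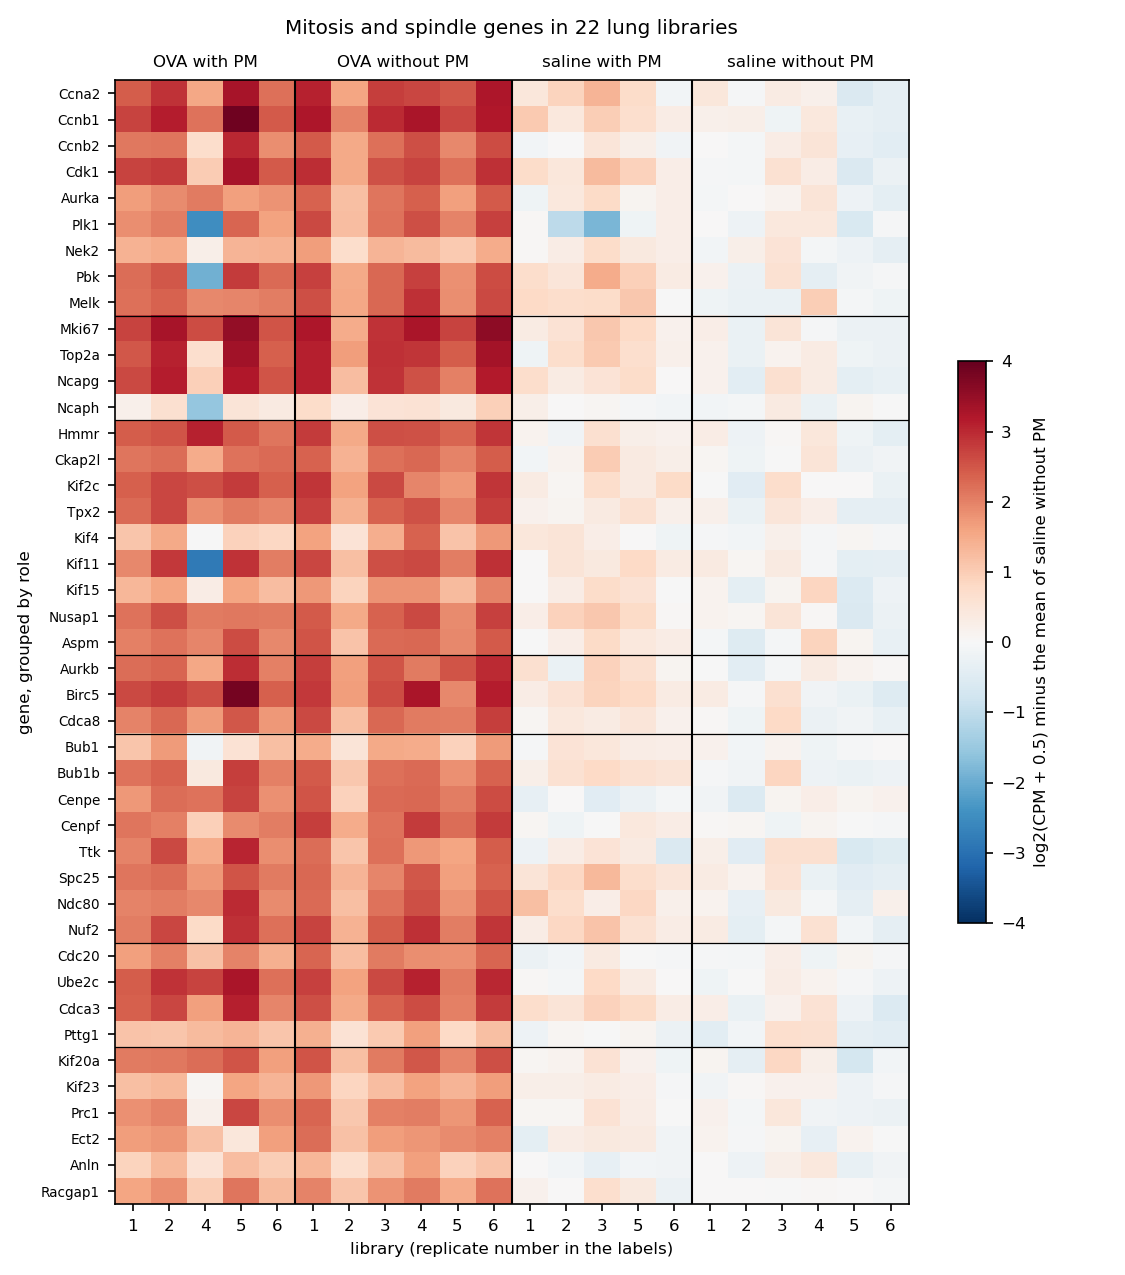
Heat map of the 43 genes (rows, grouped by role and separated by lines) in the 22 libraries (columns, by group and replicate number). The colour is log2(CPM + 0.5) minus the gene's mean in the saline arm without PM. Rows are mostly red in the OVA arm, replicate 2 of the OVA arm without PM is paler than its group, and the blue cells in replicate 4 of the OVA arm with PM lie in the library of 0.302 M counts.

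All 9 genes of mitotic entry rose in the OVA arm without PM, with a median log2 fold change of 2.70. Ccnb1 encodes cyclin B1, the activating subunit of CDK1, and lies at 100778650 to 100786570 on chromosome 13 (GRCm38, GENCODE M21). It stood at 5.83 CPM in the lowest, 13.3 CPM in the median and 15.1 CPM in the highest library of the OVA arm without PM, against 0.743, 1.12 and 1.63 CPM in the saline arm without PM. All 6 libraries of the OVA arm lay above all 6 of the saline arm, and the difference was the largest of the set, at 3.47 ± 0.28 on the log2 scale (fold change ± SE, as in all such pairs; edgeR adjusted p = 2.66e-06). Cdk1 itself ran from 14.5 to 39.5 CPM (median 31.3) in the OVA arm without PM and from 2.97 to 7.47 CPM (median 4.52) in the saline arm without PM. The groups did not overlap (log2 fold change 2.73 ± 0.26, edgeR adjusted p = 8.81e-06). Plk1, the Polo-like kinase of mitotic entry and centrosome maturation, ran from 6.18 to 18.1 CPM (median 14.2) in the OVA arm without PM and from 1.36 to 3.28 CPM (median 2.30) in the saline arm without PM, again with no overlap (2.60 ± 0.28, edgeR adjusted p = 1.95e-05).

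All 4 chromosome structure genes rose, but unequally. Mki67 encodes the Ki-67 protein that coats mitotic chromosomes and is the usual marker of cycling cells. It reached 28.9 CPM in the lowest, 88.6 CPM in the median and 125.2 CPM in the highest library of the OVA arm without PM, against 8.29, 9.18 and 14.6 CPM in the saline arm without PM (3.06 ± 0.30, edgeR adjusted p = 8.81e-06). Top2a, the topoisomerase that untangles sister chromatids, ran from 27.2 to 86.6 CPM (median 63.4) in the OVA arm without PM and from 6.64 to 10.5 CPM (median 8.16) in the saline arm without PM (2.94 ± 0.25, edgeR adjusted p = 3.49e-06). Neither gene overlapped between the arms. Ncapg and Ncaph encode subunits of condensin I, the complex that compacts chromosomes. Ncapg ran from 4.12 to 17.4 CPM (median 12.6) in the OVA arm without PM and from 0.975 to 2.55 CPM (median 1.40) in the saline arm without PM, without overlap (3.15 ± 0.38, edgeR adjusted p = 4.18e-05). Ncaph, singled out after its values were seen as the smallest change of the set, ran from 12.9 to 21.3 CPM (median 16.0) in the OVA arm without PM and from 8.82 to 13.9 CPM (median 10.4) in the saline arm without PM, with overlap (0.62 ± 0.13, edgeR adjusted p = 0.0037).

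Spindle assembly and motor genes rose in 9 of 9 cases, with a median log2 fold change of 2.56. Kif11 encodes Eg5, the kinesin that pushes the spindle poles apart. It ran from 7.59 to 26.2 CPM (median 21.1) in the OVA arm without PM and from 2.22 to 4.01 CPM (median 3.08) in the saline arm without PM, with no overlap (2.64 ± 0.29, edgeR adjusted p = 2.04e-05). Hmmr, a microtubule-binding protein of spindle assembly, ran from 5.41 to 14.3 CPM (median 11.6) in the OVA arm without PM and from 1.05 to 2.29 CPM (median 1.48) in the saline arm without PM (2.93 ± 0.26, edgeR adjusted p = 4.99e-06). The other 7 were Ckap2l, Kif2c, Tpx2, Kif4, Kif15, Nusap1 and Aspm, from 1.63 (the chromokinesin Kif4) to 2.89 (the microtubule depolymerase Kif2c).

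The chromosomal passenger complex corrects faulty attachments, and its 3 members Aurkb, Birc5 and Cdca8 all rose (median 2.83). Aurkb, its kinase, ran from 7.16 to 19.1 CPM (median 13.6) in the OVA arm without PM and from 1.34 to 2.61 CPM (median 1.99) in the saline arm without PM (2.83 ± 0.24, edgeR adjusted p = 3.64e-06). Birc5, which encodes survivin, ran from 10.6 to 33.0 CPM (median 22.3) in the OVA arm without PM and from 1.92 to 4.92 CPM (median 2.71) in the saline arm without PM (2.86 ± 0.31, edgeR adjusted p = 1.95e-05). Neither overlapped between the arms. Kinetochore and checkpoint genes rose in 8 of 8 cases (median 2.48). Ndc80, the microtubule-binding subunit of the outer kinetochore, ran from 3.90 to 11 CPM (median 8.39) in the OVA arm without PM and from 1.01 to 2.01 CPM (median 1.47) in the saline arm without PM (2.47 ± 0.27, edgeR adjusted p = 1.95e-05). Bub1b encodes BubR1, a subunit of the checkpoint inhibitor of the APC/C. It ran from 11.1 to 29.2 CPM (median 25.1) in the OVA arm without PM and from 4.03 to 9.30 CPM (median 4.35) in the saline arm without PM, with no overlap (2.21 ± 0.26, edgeR adjusted p = 3.09e-05).

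Of the anaphase genes 4 of 4 rose (median 2.35), and of the genes of the central spindle and cytokinesis 6 of 6 (median 1.91). Cdc20, the mitotic activator of the APC/C, ran from 17.5 to 37.8 CPM (median 29.4) in the OVA arm without PM and from 6.20 to 8.75 CPM (median 6.85) in the saline arm without PM (2.07 ± 0.18, edgeR adjusted p = 3.49e-06). Ube2c, the ubiquitin-conjugating enzyme of the APC/C, ran from 10.9 to 30.7 CPM (median 23.5) in the OVA arm without PM and from 2.76 to 4.01 CPM (median 3.12) in the saline arm without PM (2.81 ± 0.24, edgeR adjusted p = 4.51e-06). Prc1, which bundles the microtubules of the central spindle, ran from 12.8 to 31.5 CPM (median 25.2) in the OVA arm without PM and from 4.77 to 8.02 CPM (median 5.36) in the saline arm without PM (2.10 ± 0.21, edgeR adjusted p = 1.13e-05). Anln encodes anillin, the scaffold of the contractile ring, and changed less, from 11.2 to 22 CPM (median 15.6) in the OVA arm without PM and from 5.44 to 9.14 CPM (median 6.42) in the saline arm without PM (1.24 ± 0.17, edgeR adjusted p = 9.42e-05). None of these overlapped. Exons of 12 of the 43 genes overlap a gene on the opposite strand, among them Cdc20 (Elovl1), Ube2c (Tnnc2), Prc1 (Rccd1) and Plk1 (Gm44985), and exons of Top2a overlap a small nucleolar RNA on its own strand. The library kit marks strand, but the strand setting of the counting is not given in the sources used here, so that such reads could be shared.

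Levels per length (mean CPM per kb of the longest transcript) ranked the genes differently in the arms. In the OVA arm without PM the highest were Cdc20 (16.5), Ccnb2 (13.6), Ccna2 (12.9), Top2a (11.5) and Ube2c (10.1), and the lowest were Cenpf (0.932) and Aspm (0.799), which encode a large kinetochore protein and a spindle pole protein. In the saline arm without PM the highest were Pttg1 (4.18), Ncaph (4.01), Cdc20 (4.0) and Nek2 (3.63). Of these 4 genes, 3 (Pttg1, which encodes securin, Ncaph and the centrosomal kinase gene Nek2) were also among the 4 with the smallest log2 fold changes, which use the same saline libraries as denominator.

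With PM, the OVA arm again stood above the saline arm. Of 43 genes 42 rose (97.7%), where 13.2% of the 14250 genes tested rose, with a median log2 fold change of 1.91 against -0.006 over all genes. The summed level was 772.0 ± 235.2 CPM in the OVA arm with PM (SD, n = 5) and 226.2 ± 38.84 CPM in the saline arm with PM (SD, n = 5). The groups did not overlap for 29 of the 43 genes, against 6.67% of all genes. Without the library of 0.302 M counts, OVA replicate 4, they did not overlap for 42 genes, against 12.4% of all genes, and the exception was Ncaph. Ncaph had 12.4, 17.1, 3.35, 15.7 and 13.9 CPM in the OVA arm with PM (replicates 1, 2, 4, 5 and 6) and 12.8, 10.7, 11.3, 10.3 and 9.91 CPM in saline libraries with PM (replicates 1, 2, 3, 5 and 6). The ranges overlap, and its log2 fold change of 0.39 ± 0.15 did not pass (edgeR adjusted p = 0.0722). It did pass without that replicate (0.41) and without the libraries under 2 M counts (0.40).

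Ccnb1 had 10.03, 13.6, 6.70, 23.5 and 8.21 CPM in the OVA arm with PM and 2.82, 1.66, 2.67, 2.04 and 1.47 CPM in saline libraries with PM, in the same order of replicates. All OVA libraries lay above all saline libraries (log2 fold change 2.51 ± 0.26, edgeR adjusted p = 5.18e-06). Mki67 had 68.2, 104.4, 63.7, 121.5 and 59.4 CPM in the OVA arm with PM and 12.8, 15.3, 21.96, 17.7 and 11.5 CPM in the saline arm with PM, again without overlap (2.42 ± 0.19, edgeR adjusted p = 7.6e-07). Ube2c had 19.5, 26.9, 23.5, 35.3 and 16.7 CPM in the OVA arm with PM and 3.36, 3.03, 5.94, 4.15 and 3.28 CPM in the saline arm with PM (2.57 ± 0.20, edgeR adjusted p = 5.78e-07). Its groups were apart, too. The largest log2 fold change was that of Ttk, the checkpoint kinase MPS1, with 4.90, 7.96, 3.35, 10.8 and 4.48 CPM in the OVA arm with PM and 0.672, 1.17, 1.48, 1.25 and 0.410 CPM in the saline arm with PM (2.60 ± 0.31, edgeR adjusted p = 1.79e-05). No library of the OVA arm fell among the saline libraries. OVA replicate 4, however, held only 1 count for Ttk and 2 for Ccnb1, too few to place it against the saline libraries for these genes.

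Top2a had 48.0, 72.5, 13.4, 88.2 and 44.5 CPM in the OVA arm with PM and 7.12, 13.7, 17.2, 13.2 and 9.50 CPM in the saline arm with PM, so that only the shallow replicate 4 overlapped (2.26 ± 0.23, edgeR adjusted p = 4.53e-06). The same library overlapped for Cdk1, with 33.2, 35.3, 10.05, 50.9 and 27.7 CPM in the OVA arm with PM and 8.06, 6.54, 11.9, 9.43 and 5.73 CPM in the saline arm with PM (2.05 ± 0.20, edgeR adjusted p = 3.12e-06). Plk1 had 9.73, 11.3, 0, 13.7 and 8.08 CPM in the OVA arm with PM and 2.42, 0.879, 0.297, 2.001 and 2.87 CPM in the saline arm with PM (2.35 ± 0.30, edgeR adjusted p = 2.98e-05). Saline replicates 2 and 3 were the low ones there, and the 0 of OVA replicate 4, which allows up to 10.05 CPM, cannot be placed against the saline libraries. Other log2 fold changes were 2.52 for Ncapg, 2.52 for the kinetochore motor gene Cenpe, 2.29 for Birc5, 2.0 for Aurkb, 1.93 for Kif11, 1.84 for Prc1, 1.82 for Cdc20, 1.74 for Bub1b, 1.5 for Ndc80 and 1.24 for Anln, and all of them passed. By role the medians ran from 1.52 (central spindle and cytokinesis) to 2.34 (chromosome structure).

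**Figure D3:**
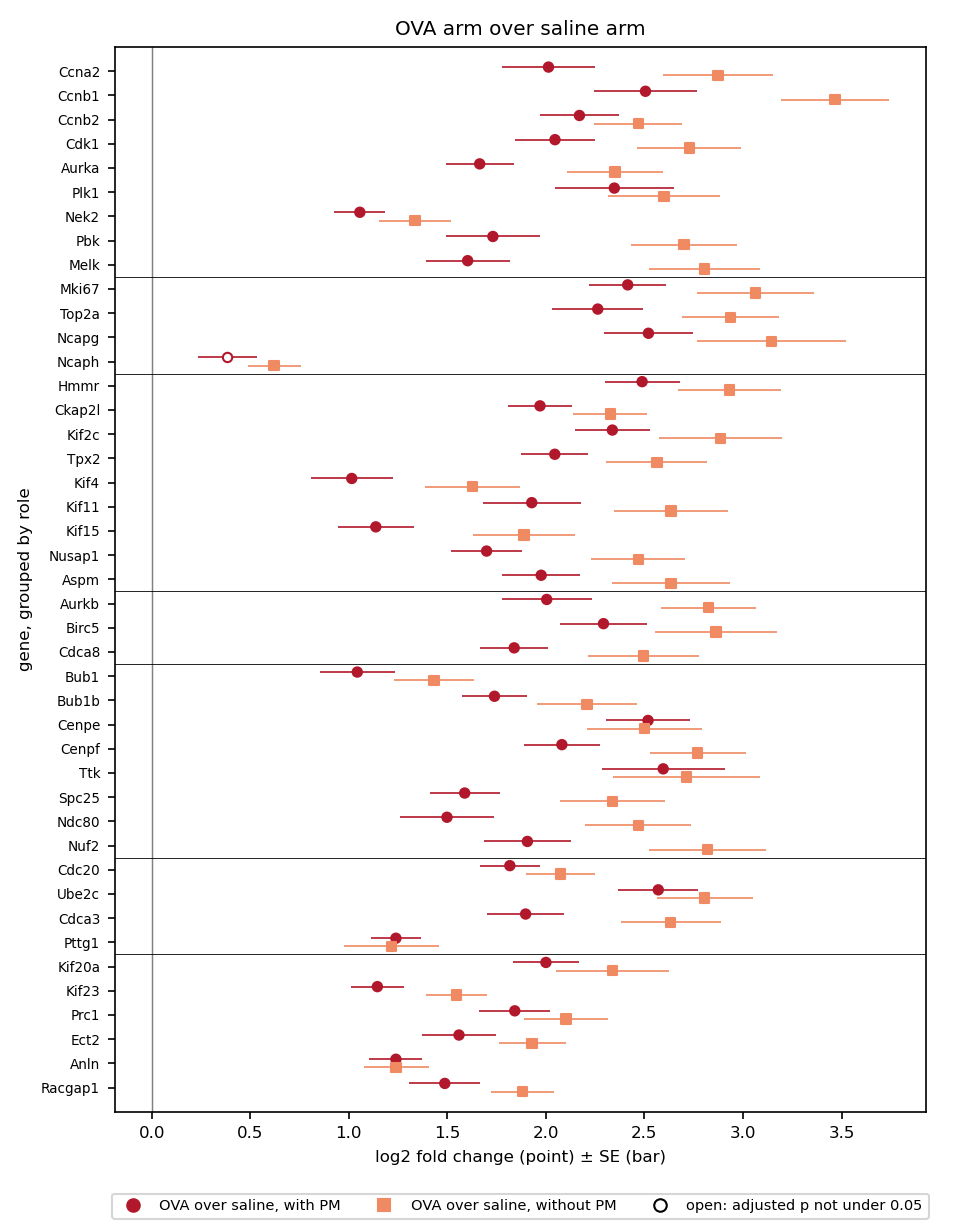
Log2 fold change of the OVA arm over the saline arm for each of the 43 genes (rows, grouped by role), with PM (circles) and without PM (squares). Bars are ± 1 SE, and open symbols did not pass an adjusted p of 0.05. The medians are 1.91 with PM and 2.50 without, and the open circle is Ncaph with PM.

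PM went with small differences in the saline arm. Of 43 genes 9 were higher with PM (20.9%), where 5.47% of the 14496 genes tested were higher, and 39 of 43 log2 fold changes were positive with a median of 0.40 against 0.005 over all genes. The 9 were Mki67, Ccnb1, Cdk1, Pbk, Melk, Spc25, Ndc80, Nuf2 and Cdca3, the last pair being outside the naming rule and given to complete the count. At an unadjusted p under 0.05 stood 20 of the 43, all higher, where 14.2% of all genes were higher at that level. The groups overlapped for all 43 genes, while 2.68% of all genes were higher and 3.19% lower without overlap. The set's summed level was 226.2 ± 38.84 CPM with PM (SD, n = 5) and 176.7 ± 32.1 CPM without PM (SD, n = 6) in the saline arm.

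The count of 9 rested on single libraries. Leaving out the no-PM libraries one at a time gave 7 (replicate 1), 1 (replicate 2), 20 (replicate 3), 11 (replicate 4), 0 (replicate 5) and 0 (replicate 6). Leaving out the PM libraries gave 1 (replicate 1), 1 (replicate 2), 0 (replicate 3), 0 (replicate 5) and 9 (replicate 6). The median log2 fold change stayed between 0.33 and 0.53 over these 11 repeats. Calls over all genes, in either direction, varied as well, from 490 to 4112 in the same repeats. DESeq2 called 14, among them the 9, and with transcript length and GC content as an offset 4 of the genes were tested and 1 passed (Mki67, 0.76). The authors' deposited table lists 14 of the 43 as higher and 0 as lower, where it calls 19.8% of 14279 genes in either direction.

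**Figure D4:**
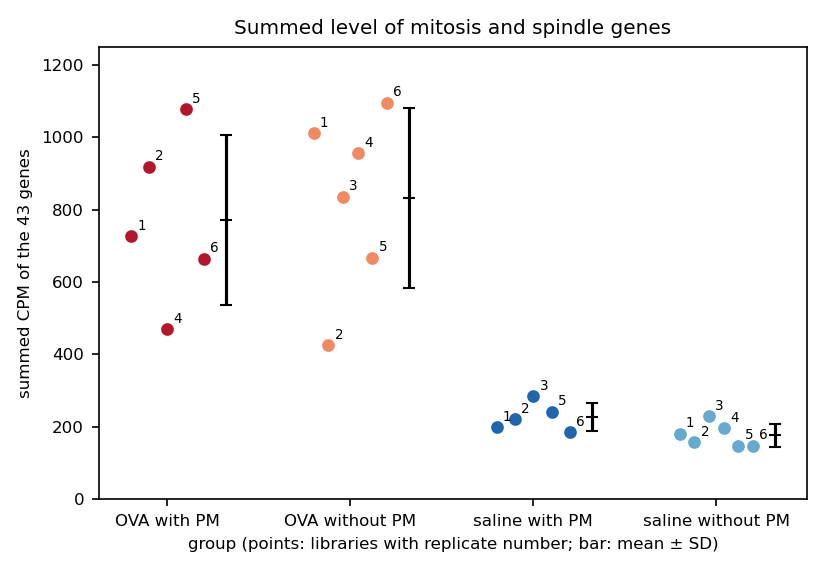
Summed CPM of the 43 genes (vertical axis, linear from 0) in each library, by group, with the replicate number beside each point and the mean ± SD as a bar. The OVA libraries run from 425.5 to 1096 CPM and the saline libraries from 147.5 to 284.3 CPM, and within each arm the groups with and without PM overlap.

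Among the entry kinases and cyclins, 4 of 9 passed with PM in the saline arm. Cdk1 had 8.06, 6.54, 11.9, 9.43 and 5.73 CPM with PM (replicates 1, 2, 3, 5 and 6), against 2.97 (lowest), 4.52 (median) and 7.47 CPM (highest) without PM. PM replicates 2 and 6 lay within the range without PM (0.83 ± 0.23, edgeR adjusted p = 0.0319). Ccnb1 had 2.82, 1.66, 2.67, 2.04 and 1.47 CPM with PM, against 0.743, 1.12 and 1.63 CPM without PM, where the PM replicate 6 alone lay within the range without PM (0.93 ± 0.26, edgeR adjusted p = 0.0358). Melk, a kinase gene of proliferating cells, had 2.82, 2.64, 2.67, 3.50 and 1.39 CPM with PM, against 1.09, 1.18 and 3.27 CPM without PM. PM replicate 5 alone lay above the range without PM, and the log2 fold change was the largest in the set (1.01 ± 0.28, edgeR adjusted p = 0.0343). Pbk, another mitotic kinase gene, had 2.55, 2.15, 4.75, 3.11 and 1.88 CPM with PM, against 0.980, 1.26 and 2.37 CPM without PM (0.96 ± 0.26, edgeR adjusted p = 0.0302), with PM replicates 2 and 6 in the range without PM. In these 4 genes replicate 6 was the lowest PM library.

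Kinetochore genes passed in 3 of 8 cases, and these were Ndc80, Spc25 and Nuf2, which encode 3 of the subunits of the NDC80 complex. Ndc80 had 3.90, 2.64, 1.78, 2.93 and 1.72 CPM with PM, against 1.01, 1.47 and 2.01 CPM without PM, so that PM replicates 3 and 6 overlapped (0.91 ± 0.25, edgeR adjusted p = 0.0349). Spc25 had 2.55, 3.32, 4.75, 3.00 and 2.54 CPM with PM, against 1.06, 1.60 and 2.73 CPM without PM, with PM replicates 1 and 6 overlapping (0.89 ± 0.26, edgeR adjusted p = 0.0379). Mki67 had 12.8, 15.3, 21.96, 17.7 and 11.5 CPM with PM, against 8.29, 9.18 and 14.6 CPM without PM (0.63 ± 0.18, edgeR adjusted p = 0.0406). Its PM replicates 1 and 6 overlapped. None of the genes of spindle motors, the passenger complex or cytokinesis passed. Values there were 0.56 for Kif11, 0.53 for Aurkb, 0.68 for Birc5 (edgeR adjusted p = 0.0586), 0.21 for Prc1 and -0.07 for Anln. Top2a (0.58, edgeR adjusted p = 0.0595) and Bub1b (0.59, edgeR adjusted p = 0.06) did not pass either, nor did Ube2c (0.28), Cdc20 (-0.04) and Plk1 (-0.23). The largest adjusted p was that of Pttg1, at 0.01 ± 0.22 (edgeR adjusted p = 0.986).

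No gene of the set passed in the OVA arm between the groups with and without PM. The count was 0 of 43, where 9.14% of the 14657 genes tested passed, 0 stood at an unadjusted p under 0.05, against 28.3% of all genes, and DESeq2 also called 0. The summed level was 772.0 ± 235.2 CPM with PM (SD, n = 5) and 832.2 ± 248.9 CPM without PM (SD, n = 6). The log2 fold changes had a median of -0.09, against -0.002 over all genes, and ran from -0.45 (Plk1) to 0.29 (Ttk), with 12 positive and 31 negative. Their 95% intervals ended below 1 for all 43 genes, and the highest upper end was 0.87 (Ttk). Ccnb1 had 10.03, 13.6, 6.70, 23.5 and 8.21 CPM with PM, against 5.83 (lowest), 13.3 (median) and 15.1 CPM (highest) without PM, for a log2 fold change of -0.03 with a 95% interval of -0.56 to 0.51. Mki67 stood at -0.01 (-0.59 to 0.57), Top2a at -0.09 (-0.64 to 0.46), Cdk1 at 0.15 (-0.33 to 0.64), Plk1 at -0.45 (-1.003 to 0.097) and Cdc20 at -0.30 (-0.68 to 0.09). The remaining named genes were between -0.29 (Aurkb) and 0.16 (Birc5). All 43 genes overlapped between the groups, while 1.27% of all genes were higher and 2.23% lower without overlap.

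Whether PM acted differently in the arms was tested by the interaction in a joint fit of the 4 groups. None of the 43 genes passed for the difference (OVA arm minus saline arm), and 14 of 14942 genes did (0.0937%), all with a negative difference. DESeq2 called 0 of the 43 as well, and 11 stood at an unadjusted p under 0.05, against 3.82% of all genes. The difference was negative for 40 of 43 genes, with a median of -0.54 against 0.007 over all genes. The most negative was Melk, at -1.18 ± 0.38 (edgeR adjusted p = 0.733). Ccnb1 stood at -0.93 ± 0.42, Ndc80 at -0.93 ± 0.39, Aurkb at -0.79 ± 0.36, Mki67 at -0.63 ± 0.39 and Anln at 0.02 ± 0.22, each with an edgeR adjusted p of 1.0. An effect in the saline arm and not in the OVA arm was therefore not shown for any of these genes.

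**Figure D5:**
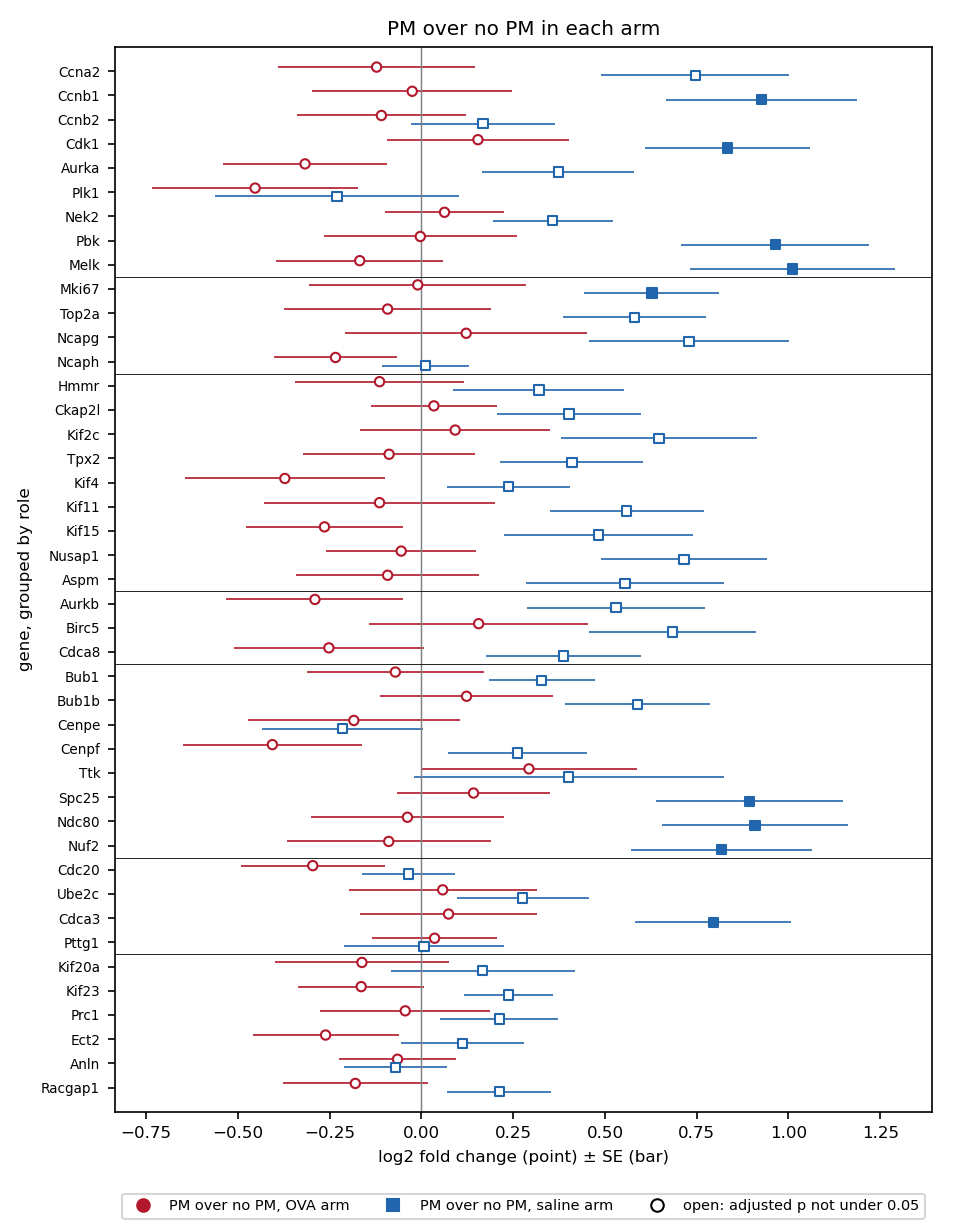
Log2 fold change with PM over without PM for each of the 43 genes (rows, grouped by role), in the OVA arm (circles) and in the saline arm (squares). Bars are ± 1 SE, filled symbols passed an adjusted p of 0.05 and open ones did not. The 9 filled squares are the genes that passed in the saline arm, and the medians are -0.09 in the OVA arm and 0.40 in the saline arm.

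Within groups, the genes moved together from library to library. After subtraction of each group's mean, the median Pearson correlation of log2 CPM over all pairs of genes was 0.61 across 22 libraries, and 894 pairs were positive. Without the libraries under 2 M counts it was 0.66 across 19 libraries, with 901 positive. The points share library depth and scaling. Among the OVA libraries without PM, replicate 2 was the lowest of 6 libraries for 43 of 43 genes, at a median of 0.45 times the median of the other 5. It lay above the highest saline library without PM for 41 genes, which are the same 41 that did not overlap between the arms. Its summed plasma cell markers (978 CPM) and alveolar macrophage markers (1448 CPM) were the lowest of that group, and its alveolar type 1 markers (7421 CPM) the highest. The alveolar macrophage sum need not stand for its list, since its genes changed unequally for OVA over saline without PM. Of that list 1 of 11 genes was higher, with log2 fold changes from -0.94 to 4.03 (median 0.20). The part of these markers in the result was not tested. Without this library the median log2 fold change of the OVA arm over the saline arm without PM was 2.70. Of the saline libraries, replicate 3 was the highest of the PM group for 27 genes, and replicate 3 of the no-PM group the highest there for 23.

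Outside the set, the 10 genes (mean of at least 1 CPM) whose group-centred log2 CPM followed the set's mean most closely across the 22 libraries were Sdf2l1 (r = 0.94), Rpn1, D17H6S56E-5, AI662270, Mzb1, Sec11c, Hspa5, Pigr, Slpi and Srgn, all at 0.91 or above. The median over 14303 genes was 0.07. Sdf2l1, Rpn1, Sec11c and Hspa5 act in the endoplasmic reticulum, and Mzb1 is a marker of plasma and marginal zone B cells. Without the libraries under 2 M counts the leading genes included Ccr1 (r = 0.92), Rrm1, Shcbp1, Ptpn7, Sdf2l1, Manf, Pdia6, AI662270 and Uhrf1, of which Rrm1 and Uhrf1 act in DNA replication. Sdf2l1 and AI662270 were in both lists.

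Other genes of the cycle did not all follow. Over all genes tested, 14.4% were higher in the OVA arm without PM, and 13.2% with PM. Of 52 further mitotic and centromere genes 51 were higher in the OVA arm without PM (median log2 fold change 1.80), and the smallest p-values were those of Casc5 (3.41), Kifc1 (2.38) and Cep55 (2.81). Between the saline groups, 47 of these genes passed the filter on low counts. Some of the 52 may have passed it only through the OVA libraries, which favours a higher value there. Of 45 DNA replication and S phase genes 37 were higher (median 0.92), with the smallest p-values for Tk1 (2.27), Uhrf1 (2.57) and Rrm2 (2.58). With PM, 45 of 49 and 29 of 45 were higher in the OVA arm. By contrast, 3 of 17 genes of the APC/C core and its regulators were higher without PM (Fbxo5 at 0.78, Fzr1 at 0.33 and Anapc15 at 0.62) and the list's median was -0.04. Of 25 tubulins and constitutively expressed spindle regulators 5 were higher and 2 lower (median 0.09), including Tubb6 (0.68) and Tubb5 (0.55) among the higher and Tubb2a (-0.39) and Tuba1a (-0.28) as the lower. Among 20 activators and repressors of G2/M transcription 10 were higher and 1 lower (median 0.38). The higher ones included E2f8 (2.38), E2f7 (1.74) and Mybl2 (1.84), the gene for B-MYB, with E2f5 (-0.27) lower. Of 16 G1 cyclins, kinases and inhibitors 5 were higher and 2 lower (median 0.13). Cdkn3 (2.24) and the E-type cyclin genes of S phase entry, Ccne1 (2.62) and Ccne2 (2.16), were higher. Ccne1 and Ccne2 are also counted among the 45 replication genes. The CDK inhibitor genes Cdkn1c (-0.80) and Cdkn2b (-0.50) were lower.

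With PM in the saline arm, 10 of 47 further mitotic genes (median 0.34) and 14 of 45 replication genes (median 0.31) were higher. The share over all genes tested was 5.47%. The smallest p-values were those of Mad2l1 (0.62), the checkpoint gene, Casc5 (1.32) and Cks1b (0.53) among mitotic genes, and, among replication genes, Ccne1 (1.09), Tyms (0.63) and Gins4 (0.31). None of the activators and repressors of G2/M transcription was higher and 1, Trp53, was lower (-0.32). Foxm1 stood at -0.27 ± 0.21 and Mybl2 at -0.31 ± 0.27 and did not pass. In the OVA arm, 0 of 52 further mitotic and 0 of 45 replication genes passed for PM, where 9.14% of all genes passed. At an unadjusted p under 0.05 by edgeR stood 2 of each list, against 28.3% of all genes.

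Some, but not all, lists of cell type markers moved with the set. Over all genes tested, 14.4% were higher in the OVA arm without PM, and 13.2% with PM. Numbers of all genes called lower for OVA over saline are given under the processing below. Plasma cell markers were higher in the OVA arm without PM in 6 of 8 cases (median 2.60) and summed to 978 to 4460 CPM there, against 791.8 to 1099 CPM in the saline arm without PM. For B cell markers the count was 10 of 10 (474.3 to 821.4 CPM, against 257.9 to 369.0 CPM), and for T cell markers 8 of 12 (263.4 to 414.6 CPM, against 176.4 to 304.0 CPM). Monocyte and interstitial macrophage markers were higher in 10 of 12 cases (1284 to 1728 CPM in the OVA arm, against 537.2 to 736.3 CPM in the saline arm), and eosinophil markers in 5 of 5 tested (39.4 to 134.3 CPM, against 18.6 to 33.0 CPM). Germinal centre B cell markers were higher in 3 of 6 cases tested (143.6 to 170.7 CPM, against 149.2 to 169.4 CPM), neutrophil markers in 1 of 9, alveolar macrophage markers in 1 of 11 and red cell precursor markers in 0 of 4. Between the saline groups, 5 germinal centre markers passed the filter. Alveolar macrophage markers had a median log2 fold change of 0.20, but summed to 1448 to 21990 CPM in the OVA arm, against 824 to 2189 CPM in the saline arm. Alveolar type 1 markers were lower in 5 of 8 cases and alveolar type 2 markers in 2 of 9. Of the airway epithelium markers 2 of 9 were higher and 3 lower, and of the fibroblast markers 2 of 8 were higher and 2 lower. Endothelial markers were lower in 8 of 11 cases (2247 to 3774 CPM in the OVA arm, against 4016 to 5014 CPM in the saline arm). With PM the counts for OVA over saline were 6 of 8 plasma cell, 9 of 10 B cell, 6 of 12 T cell, 9 of 12 monocyte and 4 of 5 eosinophil markers higher, and 10 of 11 endothelial and 8 of 8 alveolar type 1 markers lower. Higher there were also 6 of 11 alveolar macrophage (2 lower), 1 of 8 neutrophil, 1 of 5 germinal centre and 0 of 5 red cell precursor markers. Fibroblast markers were higher in 2 and lower in 5 of 8 cases, airway epithelium markers higher in 2 and lower in 3 of 8, and alveolar type 2 markers lower in 1 of 9.

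In the saline arm, plasma cell markers were higher with PM in 6 of 8 cases (1179 to 1703 CPM with PM, against 791.8 to 1099 CPM without), B cell markers in 5 of 10 (339.8 to 458.9 CPM, against 257.9 to 369.0 CPM) and monocyte markers in 7 of 12 (791.3 to 890.6 CPM, against 537.2 to 736.3 CPM). Endothelial markers were lower in 6 of 11 cases (3367 to 3693 CPM with PM, against 4016 to 5014 CPM without). At an unadjusted p under 0.05 by edgeR stood 10 of the 11, where 18% of all genes were lower and 14.2% higher. Higher with PM were also 4 of 5 eosinophil, 3 of 11 alveolar macrophage, 2 of 8 neutrophil, 1 of 12 T cell, 1 of 5 germinal centre, 1 of 5 red cell precursor, 1 of 8 alveolar type 1 and 1 of 9 airway epithelium markers. Of 9 alveolar type 2 markers 2 were higher and 1 lower, and 0 of 8 fibroblast markers passed. The share of all genes that were higher with PM in this arm was 5.47%. Of the T cell, B cell, plasma cell, monocyte, eosinophil and endothelial markers, the eosinophil gene Epx alone was at 0 in every library of a group (saline, no PM). Markers of bone marrow granulocyte precursors summed to at most 1.74 CPM in any library. For PM in the OVA arm, none of the plasma cell, B cell, T cell, germinal centre, monocyte, eosinophil, neutrophil, red cell precursor, airway epithelium or alveolar type 1 markers passed by edgeR. Higher were 2 of 11 alveolar macrophage markers (list median 0.69) and 1 of 9 alveolar type 2 markers. Lower were 3 of 8 fibroblast markers, and 6 of 11 endothelial markers (2001 to 2627 CPM with PM, against 2247 to 3774 CPM without). In either direction, 9.14% of all genes passed there. At an unadjusted p under 0.05 stood 4 of 12 monocyte markers, 2 of 9 neutrophil markers, 1 each of the T cell, B cell, germinal centre, plasma cell, eosinophil and airway epithelium lists, and 0 of the red cell precursor and alveolar type 1 lists. The share of all genes at that level was 28.3%, so that these counts do not set the lists apart as higher or lower. The part of these cell types in the results was not tested.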

How the data were processed

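Polyadenylated lung RNA (400 ng) was made into stranded libraries, pooled 24 per run and read as single ends for 75 cycles, per the labels' protocols. The submitters' processing notes name bcl2fastq and the mm10 build. Which aligner and counter were used is not given in the sources used here. All tests used the raw gene counts that the authors deposited. Per the file headers, other deposited tables hold the authors' own log2 fold changes with p-values and adjusted p-values, printed only where named. The tables shared 12 library columns, and 12 were identical. Of 24421 gene rows, 16 with names turned into dates (0.152% to 0.195% of a library's counts) were left out.

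Low genes were removed with filterByExpr (count of 10, total of 15), and TMM-scaled libraries were compared per pair of groups by the quasi-likelihood F test of edgeR, with Benjamini-Hochberg adjustment over all genes at 0.05. The difference of the PM effects came from a fit of all 4 groups. A standard error is the size of the log2 value over the root of its F statistic, and 95% intervals follow from it. Log2 CPM used a prior count of 2. The procedure was tested on simulated data.

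The members and the gene lists were chosen with earlier results of these data known. Named genes were 14 fixed members, the 5 largest called changes each way, the member with the largest adjusted p where some passed and some did not, up to 3 genes of smallest p each way per other list, and the 10 closest non-members. A gene that this rule names among the non-members is not reported here. Alternatives were DESeq2, other scalings and filters, a joint fit, a replicate block, no libraries under 2 M counts, an offset for length and GC content (splines with 4 degrees of freedom, genes of at least 10 CPM), and leaving out each library. Software was R 4.3.3 with edgeR 4.0.16 and DESeq2 1.42.0, and Python 3.11.15.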

Additional observations from a re-analysis of the deposited data

Results flagged for a closer look

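Of 60 groups of values tested, over 15 items, 3 held a library far from the others, and chance flags about 1 in 20. Birc5 stood at 48.0 CPM in replicate 5 of the OVA arm with PM, and at 17.6 to 23.3 CPM in the other 4 libraries. Ndc80 stood at 14.7 CPM in the same library, and at 6.63 to 7.37 CPM in the others. This library held 1.13 M counts, and it was the highest of its group for 28 of the 43 genes. Bub1b stood at 9.30 CPM in saline replicate 3 of the no-PM libraries, and at 4.03 to 4.81 CPM in the other 5.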

How the results depend on the processing

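Without PM, 43 of 43 genes were higher in the OVA arm under every alternative, except that the length and GC offset left 23 to test (23 higher), and with PM 42 or 43 were higher, with the offset 19 of 20. In the saline arm, the members higher with PM numbered 14 with DESeq2, 15 with the replicate block and 1 of 4 with the offset, and 0 to 20 without single libraries. The same-numbered libraries did not deviate together in every pair, so the number was not taken as a pairing, and the block changed no other count of members by over 1.5 times. Counts over all genes, called in either direction, moved as well, and whether the members moved beyond them was not tested. For PM in the saline arm the counts over all genes were 1862, 3193 with the replicate block, 1130 with the offset and 490 to 4112 without single libraries. In the OVA arm they were 1339, 2054 with library totals (184 higher, 1870 lower, against 332 and 1007, and 559 and 1026 with DESeq2), 565 with the block, 3472 without the libraries under 2 M counts, 165 with the offset and 0 to 3396 without single libraries. Library totals shifted the median log2 value of all genes there by -0.105, and that of the 43 genes was then -0.19. For the difference they were 14, 24 with DESeq2, 5 with the offset and 8 to 27 without single libraries. The split for OVA over saline was 1509 higher and 1922 lower with PM with library totals (1880 and 1364), and 1513 and 2152 without PM with the offset (2100 and 1356). The cause was not tested, beyond the offset testing fewer genes.

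Signs turned for values near 0 that did not pass. In the saline arm Anln stood at 0.008 with the block, and Pttg1 at -0.049 with DESeq2 and -0.031 with library totals. In the OVA arm Mki67 stood at 0.011 with DESeq2, 0.008 with its size factors in edgeR, 0.002 in the joint fit, 0.092 with the block and 0.177 with the offset. Ccnb1 stood at 0.059 with DESeq2, 0.002 in the joint fit and 0.085 with the block, Ndc80 at 0.025 with DESeq2 and 0.097 with the block, Ube2c at -0.041 with library totals and Prc1 at 0.025 with the block. For the difference Anln stood at -0.059 with library totals. Without single libraries the ranges were -0.097 to 0.013 (Cdc20) and -0.091 to 0.179 (Pttg1) in the saline arm. In the OVA arm they were -0.198 to 0.156 (Mki67), -0.254 to 0.053 (Top2a), -0.008 to 0.263 (Cdk1), -0.208 to 0.162 (Ccnb1), -0.030 to 0.320 (Birc5), -0.223 to 0.094 (Ndc80), -0.042 to 0.218 (Bub1b), -0.359 to 0.038 (Kif11), -0.111 to 0.213 (Ube2c), -0.201 to 0.057 (Prc1) and -0.158 to 0.010 (Anln), and -0.089 to 0.081 for the difference of Anln.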
